A study of Sus scrofa with 24 samples.

Results

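OCRL, RUFY1, FKBP15 and AP2B1 code for proteins of the endocytic route, and their transcripts were followed through 6 diets in the blood mononuclear cells of pigs. They were taken as every probe set of the porcine Affymetrix array annotated with 1 of these symbols, which gave 10 probe sets of 24123: 4 for OCRL, 1 for RUFY1, 3 for FKBP15 and 2 for AP2B1. The genes were selected on the log2 intensities of their brightest probe sets in AD and CT, the plain atherogenic and chow groups, where all 4 were lower in AD, so that difference is given as a description with no test. Of the 10 probe sets, 8 passed a filter on low values (mean log2 intensity under 3.57 left out), as did 17999 probe sets in all. The 2 that did not were the dimmest of OCRL.

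Cells take up surface receptors and lipoproteins in vesicles coated with clathrin, and sort the cargo in early endosomes for return to the surface or for breakdown in lysosomes. Each step is tied to a phosphoinositide lipid, which marks the membrane and recruits adaptors, small GTPases and their effectors. In blood mononuclear cells this route serves antigen uptake by monocytes and B cells and the recycling of receptors in lymphocytes. AP2B1 is the beta subunit of the AP-2 adaptor, which links cargo at the plasma membrane to clathrin. OCRL is an inositol phosphatase that acts on plasma membrane and endosomal phosphoinositides and is mutated in Lowe syndrome in humans. RUFY1 is an early endosome protein that binds lipids and small RAB GTPases. FKBP15 is a member of the FK506-binding protein family found on early endosomes with actin and the WASH complex.

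The study used 24 pigs, 4 to a group (2 females and 2 males), fed for 4 months, and 1 array was run for each animal. The atherogenic diet held cholic acid at 1%, tallow from beef at 5.5% and coconut oil at 10%, and was given with grape extract (AD-GE), with grape extract enriched in resveratrol (AD-GE-RES), with resveratrol (AD-RES) or alone (AD). The other 2 groups ate commercial chow with the enriched extract (CT-GE-RES) or chow alone (CT). Per 70 kg of body weight the grape extract dose was 1 g and the resveratrol dose 18 mg, and the enriched extract supplied both. RNA came from all mononuclear cells of a density gradient, so fewer cells of a type and less RNA per cell cannot be told apart. The sources used here give no breed and no age for the animals.

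Values are log2 of the deposited intensities, in the order of the 2 females and then the 2 males of a group. Differences are log2 with SE from limma, with sex in the model. Array medians lay between 38.6 and 41.2 on the linear scale and the precision of all values is limited by how many arrays there were. T cell and monocyte transcripts were well measured, with mean log2 levels of 10.18 for CD3E and 9.57 for FCN1. CD4 (4.54) and ITGAM (3.58), which code for surface proteins of T cells and monocytes, were dim. Transcripts of platelets (PPBP, mean 8.78) and of the erythroid line (ALAS2, mean 11.27) were also present. The 3'/5' ratio of 3 control transcripts, a log2 measure that rises as RNA is degraded or copied short, ran from 1.37 to 4.39. It averaged 2.19 ± 0.87 in AD and 3.15 ± 1.13 in CT (SD, n = 4 each, exact permutation p 0.143).

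AP2B1, the coat adaptor subunit, was low in its brighter probe set in most animals on the atherogenic diet, with or without supplements. This set (Ssc.6040.1.S1_at) read 7.70, 7.61, 7.82 and 7.22 in AD, against 7.92, 8.30, 8.0 and 8.33 in CT. Every AD animal lay below every CT animal, a pattern shown by 303 of the 17999 probe sets (1.68%). The difference was -0.55 (SE 0.17), or 0.68 times the CT level.

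The supplemented animals took no part in that choice. AP2B1 read 7.44, 7.30, 7.15 and 7.26 in AD-GE. It read 7.54, 8.08, 7.31 and 7.76 in AD-GE-RES. In AD-RES it read 7.68, 7.38, 8.01 and 7.98, against 8.11, 8.14, 8.26 and 8.05 in CT-GE-RES. All 4 CT-GE-RES animals were high and close together, and 11 of the 12 supplemented atherogenic animals lay below the lowest of them. All 12 did so in 48 of 17999 probe sets (0.267%), and AP2B1 was not among these. In the second AP2B1 probe set, Ssc.6040.2.S1_at, 1 of the 12 lay below the lowest CT-GE-RES animal. The share of all probe sets with 11 animals below was not counted. Nor was it for the counts given next for FKBP15, RUFY1 and OCRL, so how unusual they are is not known.

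FKBP15 showed a like pattern in its brightest probe set (Ssc.5052.1.S1_at). It read 7.94, 8.05, 8.11 and 7.82 in AD, against 8.60, 8.37, 8.36 and 8.57 in CT. AD again lay wholly below CT, with a difference of -0.49 (SE 0.12). AD-GE was the lowest and tightest group of all, at 7.75, 7.73, 7.67 and 7.75. It also lay wholly below AD, as did 538 of 17999 probe sets (2.99%). AD-GE-RES read 8.17, 8.28, 7.91 and 7.92. AD-RES read 7.82, 8.02, 8.22 and 8.32, against 8.27, 8.31, 8.25 and 8.61 in CT-GE-RES. Of the 12 supplemented atherogenic animals, 10 lay below the lowest CT-GE-RES animal.

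RUFY1 had a single probe set (Ssc.24376.1.S1_at). It read 7.12, 6.78, 6.84 and 6.87 in AD, against 7.20, 7.54, 7.40 and 7.54 in CT. The groups did not overlap, though AD 1 and CT 1 were only just apart, and the difference was -0.52 (SE 0.13). In AD-GE it read 7.19, 7.10, 6.67 and 6.63, and in AD-GE-RES 7.42, 7.44, 6.97 and 6.99. Both females lay above both males in these 2 groups. AD-RES read 6.88, 6.86, 7.04 and 6.88, against 7.26, 7.27, 7.33 and 7.13 in CT-GE-RES. Here 9 of the 12 supplemented atherogenic animals lay below the lowest CT-GE-RES animal, and the 2 AD-GE-RES females lay above the highest.

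OCRL was high in the plain chow group alone. Its brightest probe set (Ssc.29235.1.A1_at) read 5.04, 5.08, 5.02 and 5.11 in AD, against 5.48, 5.65, 5.55 and 5.52 in CT, a difference of -0.49 (SE 0.10). CT-GE-RES read 5.13, 5.43, 5.12 and 5.01, so all 4 of these chow animals lay below the lowest CT animal, a pattern shown by 381 of 17999 probe sets (2.12%). CT is 1 of the 2 groups that chose OCRL, for its high values there, so a lower level than CT in any other group is in part fixed by the choice and supports nothing. AD-GE read 5.38, 5.42, 5.01 and 5.02. AD-GE-RES read 5.24, 5.20, 5.05 and 5.08, and AD-RES 5.14, 5.07, 5.19 and 5.32. Of these 12 animals, 1 lay below the lowest CT-GE-RES animal.

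**Figure D1:**
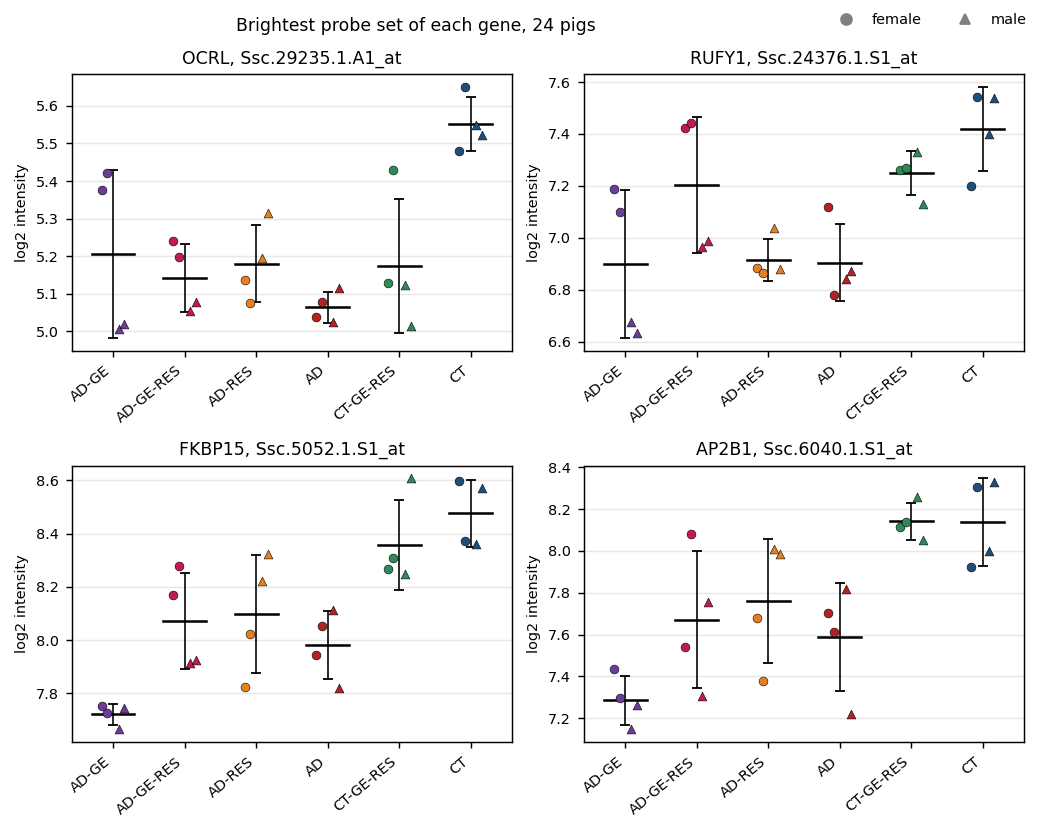
Log2 intensity of the brightest probe set of each gene in the 24 pigs, by diet group; circles are females, triangles males, and bars show the group mean and SD (n = 4). AP2B1 and FKBP15 were highest in both chow groups (8.14 and 8.14 for AP2B1 and 8.36 and 8.48 for FKBP15 in CT-GE-RES and CT), whereas OCRL was high in CT alone (5.55). The genes were chosen for CT above AD in these probe sets.

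Ordered by group mean, the brightest sets of RUFY1, FKBP15 and AP2B1 had both chow groups at the top and AD-GE at the bottom. The place of CT above AD is fixed by the choice of the genes and supports nothing. For FKBP15 the means ran 7.72 ± 0.04 in AD-GE, 7.98 ± 0.13 in AD, 8.07 ± 0.18 in AD-GE-RES, 8.10 ± 0.22 in AD-RES, 8.36 ± 0.17 in CT-GE-RES and 8.48 ± 0.13 in CT (SD, n = 4 each). The gap between AD-GE and AD was the only one between neighbours whose ranges did not overlap. For AP2B1 they ran 7.29 ± 0.12 in AD-GE, 7.59 ± 0.26 in AD, 7.67 ± 0.33 in AD-GE-RES, 7.76 ± 0.30 in AD-RES, 8.14 ± 0.21 in CT and 8.14 ± 0.09 in CT-GE-RES, and all neighbours overlapped. For RUFY1, AD-GE (6.90 ± 0.29), AD (6.90 ± 0.15) and AD-RES (6.92 ± 0.08) were level. AD-GE-RES (7.20 ± 0.26), CT-GE-RES (7.25 ± 0.08) and CT (7.42 ± 0.16) followed, again with overlap between neighbours. OCRL ran from 5.06 ± 0.04 in AD through AD-GE-RES (5.14 ± 0.09), CT-GE-RES (5.17 ± 0.18), AD-RES (5.18 ± 0.10) and AD-GE (5.21 ± 0.22), with CT (5.55 ± 0.07) apart from its neighbour.

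The effect of the atherogenic diet was tested in the 16 animals of AD-GE, AD-GE-RES, AD-RES and CT-GE-RES. None of them entered the contrast of AD with CT that chose the genes, though earlier results of these data were known when genes and tests were chosen. With the same supplement on both sides, AP2B1 (Ssc.6040.1.S1_at) differed by -0.47 between AD-GE-RES and CT-GE-RES (SE 0.16, 95% interval -0.82 to -0.12). FKBP15 (Ssc.5052.1.S1_at) differed by -0.29 (SE 0.13, interval -0.55 to -0.02). RUFY1 differed by -0.04 (SE 0.12, interval -0.30 to 0.21) and OCRL (Ssc.29235.1.A1_at) by -0.03 (SE 0.11, interval -0.26 to 0.20). Covariates moved these values to differing degrees. With the 3'/5' ratio in the model AP2B1 was -0.57 and FKBP15 -0.33 (limma adjusted p 0.338 and 0.535). RUFY1 was -0.13 and OCRL -0.08 (adjusted p 0.8 and 0.913). With monocyte and T cell means AP2B1 was -0.60 and FKBP15 -0.29 (adjusted p 0.16 and 0.295). RUFY1 was then -0.15 and OCRL -0.10 (adjusted p 0.601 and 0.797). AP2B1 and FKBP15 were each below the lowest CT-GE-RES animal in 3 of 4 AD-GE-RES animals, RUFY1 in 2 and OCRL in 0, so that none of the 4 lay wholly below CT-GE-RES, as 192 of 17999 probe sets did (1.07%).

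None of the 8 probe sets passed the threshold after adjustment in this comparison, and neither did any other (0 of 17999, 0%). In limma the adjusted p was 0.713 for AP2B1 and 0.763 for FKBP15, and 0.985 and 0.989 for RUFY1 and OCRL. Before adjustment, 3 of the 8 had p under 0.05: AP2B1 (0.0124), FKBP15 (0.0382) and a dimmer FKBP15 probe set, Ssc.5052.2.S1_at (0.0185). Across the array 1139 probe sets did (6.33%). By exact permutation of 4 against 4 animals the p was 0.0571 for AP2B1 and 0.0857 for FKBP15 and for its dimmer set, where 0.0286 is the smallest that can be reached.

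Set against CT-GE-RES together, the 3 supplemented atherogenic groups differed by -0.57 in AP2B1 (SE 0.13, interval -0.85 to -0.28, limma adjusted p 0.154). FKBP15 differed by -0.39 (SE 0.10, adjusted p 0.154) and RUFY1 by -0.24 (SE 0.10, adjusted p 0.302). OCRL differed by 0.00 (SE 0.09, interval -0.19 to 0.19, adjusted p 0.994). By p, AP2B1 ranked 91 and FKBP15 195 of the 17999 probe sets. Unadjusted p-values under 0.05 were met by 3 of the 8 probe sets and by 2482 of all (13.8%), with 0 called after adjustment (0%). In AD-GE and AD-RES the supplement differed from that of CT-GE-RES as well as the diet. Without the AD-GE-RES female with the highest AP2B1 (AD-GE-RES 2), AP2B1 differed by -0.62 and passed the threshold (limma adjusted p 0.0497). That fit called 54 of 17999 probe sets. AD-GE-RES 2 is the animal nearest to chow among the 12, and AP2B1 did not pass with any other single array left out.

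**Figure D2:**
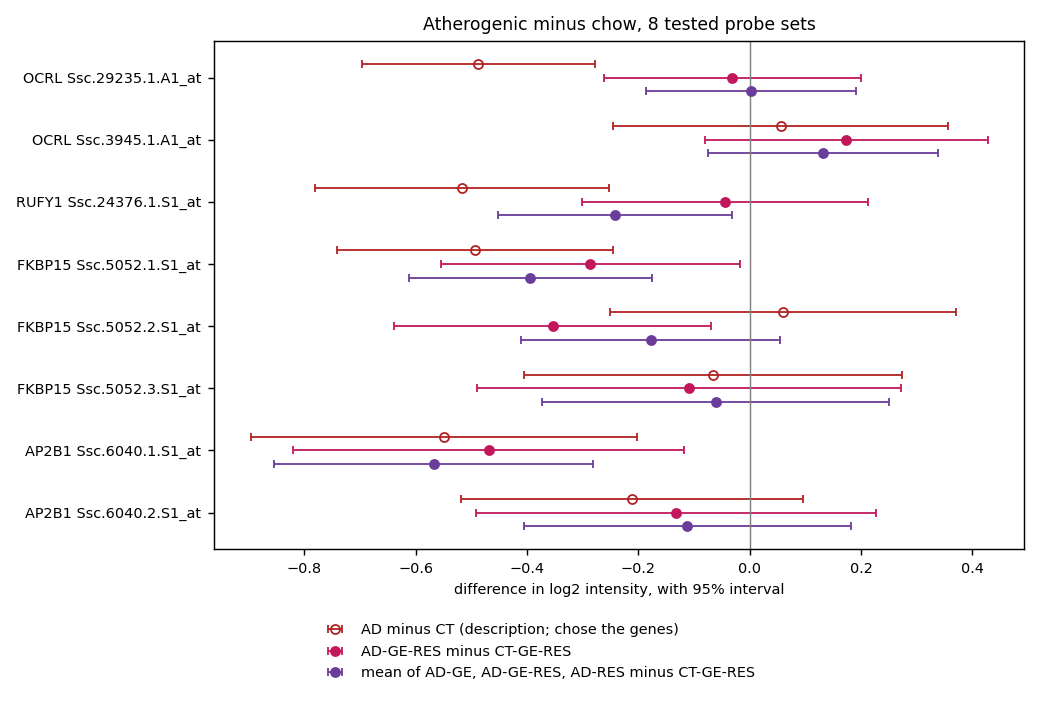
Difference in log2 intensity, atherogenic minus chow, with 95% intervals from limma for the 8 tested probe sets; open circles show AD minus CT, which chose the genes, and filled circles the animals the choice did not use. AP2B1 Ssc.6040.1.S1_at lay at -0.55, -0.47 and -0.57 in the 3 comparisons, whereas OCRL Ssc.29235.1.A1_at lay at -0.49, -0.03 and 0.00.

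The study's comparisons of the supplements with AD asked whether grape extract or resveratrol altered the response to the diet. They share the AD animals that served to choose the genes, so they are given without a test. AP2B1 differed from AD by -0.30 in AD-GE, 0.08 in AD-GE-RES and 0.17 in AD-RES (SE 0.17 each). FKBP15 differed by -0.26, 0.09 and 0.12 (SE 0.12) and OCRL by 0.14, 0.08 and 0.12 (SE 0.10), in the same order. RUFY1 stood 0.30 (SE 0.13) above AD in AD-GE-RES, with differences of -0.00 in AD-GE and 0.01 in AD-RES. On chow the enriched extract went with lower OCRL, at -0.38 against CT (SE 0.10). RUFY1 differed by -0.17 (SE 0.13), FKBP15 by -0.12 (SE 0.12) and AP2B1 by 0.00 (SE 0.17) in that comparison, which shares the CT animals.

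The supplements could be tested against each other. AP2B1, FKBP15 and RUFY1 spread by 0.48, 0.38 and 0.30 between the highest and lowest of the 3 supplemented atherogenic means, and OCRL by 0.06. The moderated F test gave adjusted p-values of 0.582, 0.582, 0.588 and 0.953 for these genes, and called 0 of 17999 probe sets (0%), with 1503 at an unadjusted p under 0.05 (8.35%). AD-GE was the low group in FKBP15, at -0.38 against AD-RES (limma adjusted p 0.598), and in AP2B1, at -0.48 (adjusted p 0.6). In FKBP15 it overlapped neither AD-RES nor AD-GE-RES, as in 2.44% and 1.62% of probe sets. In this gene AD-GE-RES exceeded AD-GE by 0.35 (adjusted p 0.615). AD-GE also had the lowest mean of the 6 groups in a list of monocyte genes, at -0.36 ± 0.25, while AD-RES stood at -0.15 ± 0.51, AD-GE-RES at -0.04 ± 0.31 and AD at 0.28 ± 0.18 (SD, n = 4 each, log2 relative to each gene's mean over all arrays). Its part in the low AD-GE level of FKBP15 was not tested.

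The other probe sets of OCRL, FKBP15 and AP2B1 did not repeat the separation of AD from CT. AP2B1 Ssc.6040.2.S1_at, nearly as bright as the first (mean 7.44, against 7.76), read 7.45, 7.40, 7.30 and 7.13 in AD, against 7.73, 7.54, 7.54 and 7.32 in CT. Its groups overlapped by 1 CT male, with a difference of -0.21 (SE 0.15). FKBP15 Ssc.5052.2.S1_at (mean 5.73) and Ssc.5052.3.S1_at (mean 5.03) differed by 0.06 (SE 0.15) and -0.07 (SE 0.16). OCRL Ssc.3945.1.A1_at (mean 3.98) differed by 0.06 (SE 0.14). In these last 3 sets the 6 diet groups overlapped throughout.

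In OCRL the 2 probe sets under the filter stayed between 2.57 and 3.81 in all animals. Ssc.3945.2.S1_at averaged 3.26 ± 0.14 in AD and 3.39 ± 0.40 in CT, and Ssc.3945.3.S1_at 2.92 ± 0.10 in AD and 3.05 ± 0.23 in CT (SD, n = 4 each). In the animals not used for the choice, Ssc.5052.2.S1_at differed by -0.35 between AD-GE-RES and CT-GE-RES (SE 0.13, interval -0.64 to -0.07, limma adjusted p 0.72), and the second AP2B1 set by -0.13 (SE 0.17, adjusted p 0.949). The 3 supplemented atherogenic groups together differed from CT-GE-RES by -0.11 in that AP2B1 set (SE 0.14, limma adjusted p 0.751). They differed by -0.18 in Ssc.5052.2.S1_at and -0.06 in Ssc.5052.3.S1_at (adjusted p 0.48 and 0.888). Of their 12 animals, 2 and 1 lay below the lowest CT-GE-RES animal in these FKBP15 sets. Across the 24 arrays the brightest set correlated with its gene's other sets at r 0.17, 0.23 and 0.34 for OCRL, 0.29 and 0.44 for FKBP15 and 0.42 for AP2B1. Averaged over all probe sets of a gene, AD minus CT was -0.17 for OCRL, -0.17 for FKBP15 and -0.38 for AP2B1, so in all 3 genes the size of the difference hangs on the probe set taken. The same average for AD-GE-RES minus CT-GE-RES was -0.0043 for OCRL, -0.25 for FKBP15 and -0.30 for AP2B1 (limma adjusted p 1.0, 0.793 and 0.793), where the brightest AP2B1 set alone gave -0.47. Which transcript regions the sets cover was not examined.

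**Figure D3:**
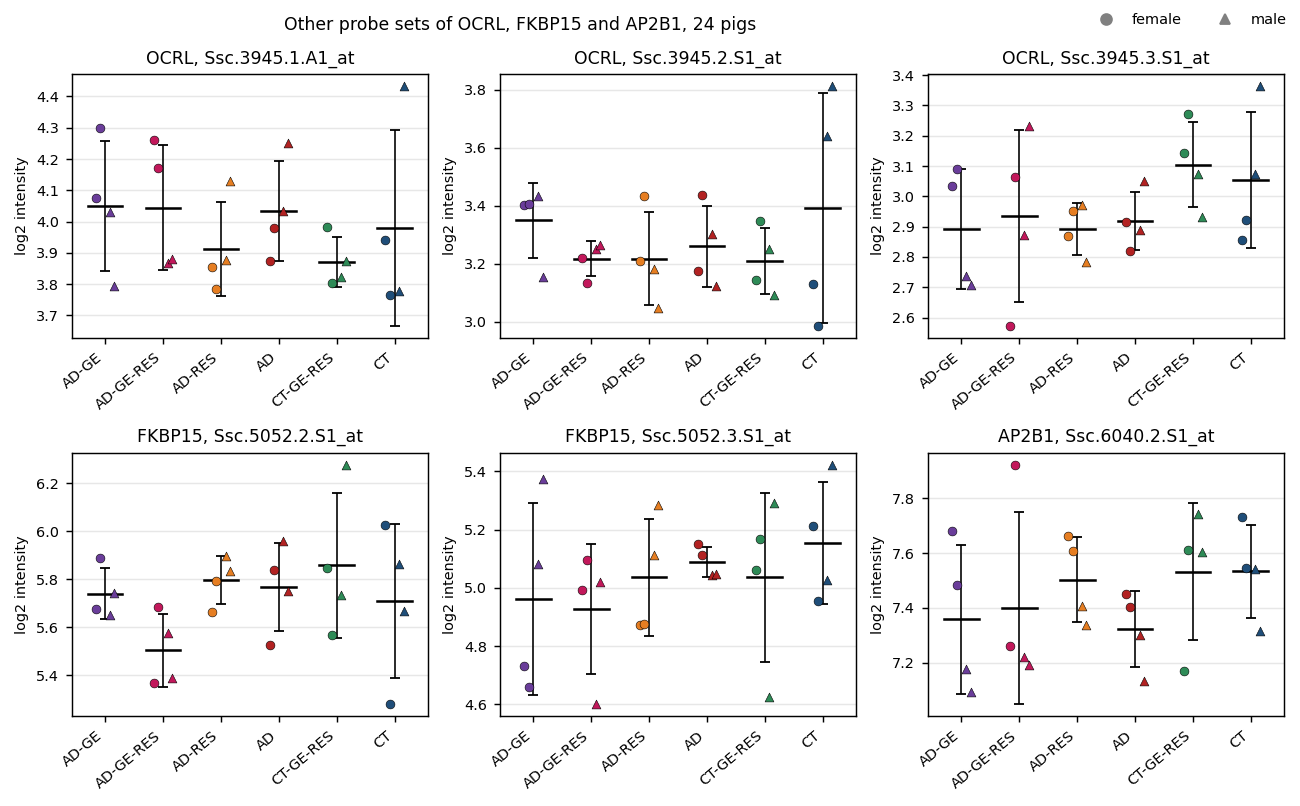
Log2 intensity of the 6 other probe sets of OCRL, FKBP15 and AP2B1 in the 24 pigs, by diet group; circles are females, triangles males, and bars show the group mean and SD (n = 4). AD and CT overlapped in all 6, also in AP2B1 Ssc.6040.2.S1_at (7.32 ± 0.14 in AD and 7.53 ± 0.17 in CT).

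Females and males were compared in the same 16 animals, 8 of each sex. RUFY1 averaged 7.18 ± 0.22 in females and 6.95 ± 0.23 in males (SD, n = 8 each), a difference of 0.22 (SE 0.09, limma adjusted p 0.253). OCRL was 5.25 ± 0.14 in females and 5.10 ± 0.11 in males, a difference of 0.15 (SE 0.08, adjusted p 0.382). FKBP15 (-0.04) and AP2B1 (-0.01) differed less than their SE of 0.09 and 0.12. None of the 8 probe sets was among the 47 of 17999 called (0.261%), and only RUFY1 had an unadjusted p under 0.05 (0.0193), as did 2627 probe sets in all (14.6%). Pooled over these animals, the 3'/5' ratio was 2.74 ± 0.88 in females and 1.89 ± 0.56 in males. That gap came from AD-GE (3.16 and 1.76) and AD-GE-RES (3.74 and 1.65). It was small in AD-RES (1.98 and 1.86) and reversed in CT-GE-RES. RUFY1 was higher in females of AD-GE (7.14 against 6.65) and AD-GE-RES (7.43 against 6.98). It was near level in CT-GE-RES (7.27 against 7.23) and lower in AD-RES females (6.87 against 6.96). OCRL was lower in AD-RES females (5.11 against 5.25) and higher in females of the other groups. With the ratio in the model the sex difference was 0.08 for RUFY1 (adjusted p 0.833) and 0.07 for OCRL (adjusted p 0.868).

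The difference between AD-GE-RES and CT-GE-RES was also set side by side in the sexes, 2 animals on each side. RUFY1 differed by 0.17 in females and by -0.25 in males. FKBP15 differed by -0.06 in females and -0.51 in males, and the second AP2B1 set by 0.20 and -0.47. The interaction of sex and diet was 0.42 for RUFY1 (SE 0.16, limma adjusted p 0.326), 0.44 for FKBP15 (SE 0.19, adjusted p 0.376) and 0.67 for that AP2B1 set (SE 0.28, adjusted p 0.369). It was called in 0 of 17999 probe sets (0%), and 3 of the 8 had an unadjusted p under 0.05, as did 2203 in all (12.2%). In AD-GE-RES the ratio averaged 3.74 in females and 1.65 in males, and in CT-GE-RES 2.10 in females and 2.31 in males.

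RUFY1 followed the 3'/5' ratio among animals of one diet. After group means were taken out, its Pearson r with the ratio over 24 arrays was 0.833 and Spearman's rho 0.835 (each with permutation p 0.00013 and adjusted p 0.00416 over 32 relations). The r was 0.819 without the 2 arrays farthest from the median ratio and 0.84 without the array of highest ratio (CT 4). Within the 12 females r was 0.873 (permutation p 0.0314) and within the 12 males 0.693 (permutation p 0.219). The other genes split by sex gave r 0.676 in females and -0.05 in males for AP2B1 (permutation p 0.0317 and 0.783), -0.548 and -0.591 for FKBP15 (0.313 and 0.405) and 0.574 and 0.653 for OCRL (0.407 and 0.377), none of them adjusted. The permutation p of 0.0314 and 0.0317 lie at the floor set by having 2 animals of a sex in each group. For RUFY1 in the 16 animals not used for the choice, r was 0.854 (adjusted permutation p 0.0531) and rho 0.859 (adjusted p 0.018).

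RUFY1 fell in turn with the T cell list (9 of 14 genes measured), at r -0.755 and rho -0.786 (adjusted permutation p 0.012 and 0.00736, r -0.789 without the 2 farthest arrays). OCRL went the same way, at r -0.501 and rho -0.687 (adjusted p 0.042 and 0.00821, r -0.618 without the 2 farthest). Sex was not taken out of these relations, and they were not split by sex. In the 16 animals the T cell list averaged -0.03 in females and 0.29 in males. OCRL and the ratio had r 0.543 and rho 0.568 (adjusted permutation p 0.0704 and 0.0801). FKBP15 and the monocyte list (12 of 17 genes) had r 0.659 and rho 0.547, short of the threshold (adjusted permutation p 0.0539 and 0.139). AP2B1 had r 0.375 with the ratio and -0.394 with the T cell list (adjusted permutation p 0.315 each). The T cell list stood at -0.04 ± 0.27 in AD and -0.48 ± 0.65 in CT (SD, n = 4 each, exact permutation p 0.286), with CT 4 the lowest at -1.39. With the enriched extract on both diets it lay the other way, at -0.03 ± 0.63 in AD-GE-RES and 0.22 ± 0.25 in CT-GE-RES (exact permutation p 0.514), with 8 of 9 genes lower in AD-GE-RES. With the ratio in the model, AD minus CT was -0.37 for RUFY1, -0.42 for OCRL, -0.49 for FKBP15 and -0.45 for AP2B1.

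**Figure D4:**
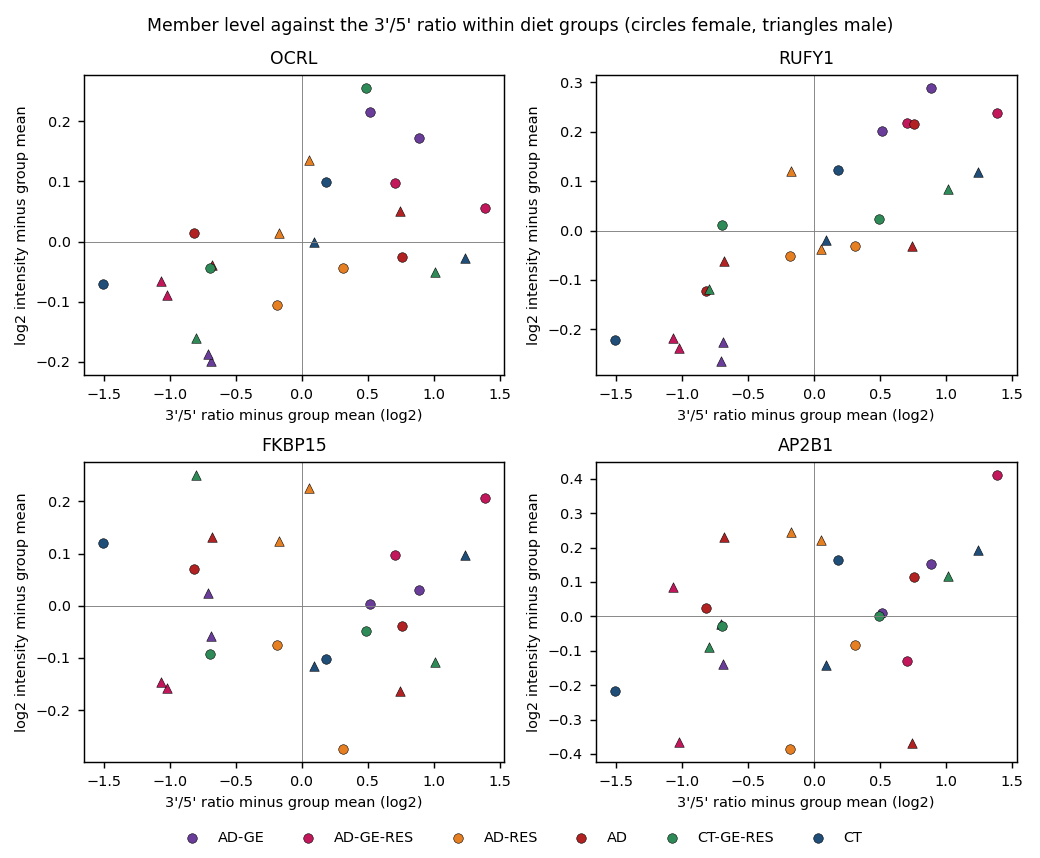
Log2 intensity of the brightest probe set of each gene against the 3'/5' ratio of control transcripts (log2), both minus the mean of the animal's diet group; circles are females, triangles males, colours the 6 groups. RUFY1 rose with the ratio (r 0.833), OCRL less so (0.543), and FKBP15 had r -0.01 with the sexes pooled.

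Platelet transcripts were followed because platelets come down with mononuclear cells. Their list (8 of 15 genes) stood at -0.29 ± 0.85 in AD and 0.46 ± 0.96 in CT, with 7 of 8 genes lower in AD (exact permutation p 0.314). It stood at -0.28 ± 0.77 in AD-GE-RES and 0.51 ± 0.54 in CT-GE-RES, with all 8 lower (SD, n = 4 each, exact permutation p 0.2). On chow the monocyte list was 0.11 ± 0.50 in CT-GE-RES and 0.15 ± 0.46 in CT. Within groups none of the 4 genes correlated with the platelet list past the threshold (r 0.167 to 0.382). The part of cell make-up in the diet differences was not tested. With monocyte and T cell means in the model, the supplemented atherogenic groups differed from CT-GE-RES by -0.65 in AP2B1 and -0.33 in FKBP15. The limma adjusted p was 0.0209 and 0.0462, in a fit that called 684 of 17999 probe sets. The second AP2B1 set and the dimmer FKBP15 sets did not pass (adjusted p 0.315, 0.694 and 0.731). Between AD-GE-RES and CT-GE-RES, with these means in the model, 0 probe sets were called (adjusted p 0.16 for AP2B1 and 0.295 for FKBP15).

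The 4 genes varied together in part among animals of the same diet. Over 24 arrays, group means and a single sex difference common to all groups were taken out. Sex differences that varied between groups stayed in. RUFY1 averaged 7.14 in females and 6.65 in males of AD-GE, but 6.87 and 6.96 in AD-RES. Relations among animals of the same diet and sex were not tested. RUFY1 went with OCRL (r 0.571, rho 0.614) and with AP2B1 (r 0.554, rho 0.557). Each had an adjusted permutation p of 0.0413 for r and 0.0407 for rho over 6 pairs. Without the 2 farthest arrays the r were 0.71 and 0.556. FKBP15 and AP2B1 had r 0.471 (adjusted permutation p 0.125), and FKBP15 with OCRL 0.134 (adjusted p 0.583). In the 16 animals not used for the choice, RUFY1 had r 0.606 with OCRL and 0.639 with AP2B1 (adjusted permutation p 0.0725 each, and 0.0393 for rho).

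Of other endocytic genes, 86 in 6 lists were measured, the 4 genes themselves left out, and no list had a member called between AD-GE-RES and CT-GE-RES in either direction. Among partners of AP2B1, the clathrin and AP-2 list had 6 of 11 genes lower and a median difference of -0.03, which equals the median of all 6033 genes (57.2% of them lower). The clathrin heavy chain CLTC differed by -0.27 and the light chain CLTA by -0.24 (limma adjusted p 0.807 and 0.744). The AP-2 subunits AP2M1 and AP2S1 differed by -0.17 and -0.09 (adjusted p 0.883 and 0.97). NECAP1, an AP-2 binding protein, differed by 0.22 (adjusted p 0.847).

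Enzymes of phosphoinositides and inositol phosphates, the list nearest OCRL, had 6 of 12 genes lower (median -0.01), with INPP5A at -0.30, PIP4K2A at -0.17 and MTMR2 at 0.18. Early endosome genes, the setting of RUFY1, had 10 of 18 lower (median -0.06). The endosomal fusion regulator VPS45 differed by -0.42 (adjusted p 0.783), WDFY2 by -0.19 and the small GTPase RAB22A by 0.22. The WASH and retromer list, near FKBP15, had 11 of 14 lower (median -0.04). It was led by the actin capping subunit CAPZB (-0.30, adjusted p 0.713) and the sorting nexin SNX1 (-0.25), with WASHC1 at 0.16. Other adaptor complexes had 6 of 10 lower (median -0.07), with AP3B1 at -0.25, AP3M1 at -0.16 and AP1M1 at -0.14. Late endosome and lysosome genes had 15 of 21 lower (median -0.01), with the tethering subunits VPS11 (-0.47) and VPS41 (-0.17) and the cholesterol exporter NPC1 (-0.31).

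Against CT-GE-RES the 3 supplemented atherogenic groups together were lower in 14 of 14 WASH and retromer genes, 10 of 10 other adaptor genes, 18 of 21 lysosomal and 14 of 18 early endosome genes. In the clathrin list it was 6 of 11 and in the phosphoinositide list 7 of 12. Medians ran from -0.14 (early endosome) to -0.01 (clathrin), where all genes had -0.06 with 63% lower. None was called. Between AD and CT, 6 of 11, 9 of 12, 12 of 18, 10 of 14, 9 of 10 and 12 of 21 genes were lower in the clathrin, phosphoinositide, early endosome, WASH, other adaptor and lysosome lists, where 52.4% of all genes were.

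Close relatives of the 4 genes were read beside them, and none was called between AD-GE-RES and CT-GE-RES. AP1B1, the matching subunit of the AP-1 adaptor of the Golgi and endosomes, differed by -0.17 (SE 0.09) between AD and CT and by 0.04 between AD-GE-RES and CT-GE-RES (limma adjusted p 0.984). A second, dim AP1B1 set (mean 4.13, against 8.99) went the other way, at 0.20 (SE 0.13) and -0.05 (adjusted p 0.984). The brighter RUFY3 set (mean 5.09) differed by -0.08 (SE 0.19) and 0.19 (adjusted p 0.865), and a dimmer one (mean 3.7) by -0.08 (SE 0.15) and -0.05 (adjusted p 0.986). The 2 probe sets of INPP5B, the nearest relative of OCRL, opposed each other between AD and CT, at -0.25 (SE 0.21) and 0.24 (SE 0.34). Between AD-GE-RES and CT-GE-RES they differed by -0.11 and -0.46 (adjusted p 0.976 and 0.847).

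The genes with levels most like each of the 4 were sought by Pearson r over the 24 arrays among 6029 genes, as a description in which arrays share quality and cell make-up. AP2B1 was nearest VPS45 (r 0.89, and 0.75 with group and sex taken out), EIF2S1 (0.88 and 0.72) and PSMD1 (0.86 and 0.76). FKBP15 was nearest PINK1 (0.87 and 0.77), TSPAN13 (0.84 and 0.77) and TNFRSF1A (0.84 and 0.73). RUFY1 was nearest ARMC6 (0.86 and 0.76), APEX2 (0.85 and 0.74) and IRF2 (0.85 and 0.71). OCRL had weaker neighbours in LONRF3 (0.71 and 0.51), RHOBTB1 (0.68 and 0.68) and FDXR (0.67 and 0.53). VPS45, in the early endosome list, was the only one of these 12 genes from the 6 endocytic lists.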

How the data were processed

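Affymetrix porcine arrays were hybridised with RNA of 24 pigs. The deposited values were linear intensities, 1 for each probe set and array; RMA and GCOS were named in the submitters' processing notes, without versions or roles. They were log2-transformed. From the 24123 probe sets 124 controls were set aside and the lowest 25% by mean over the arrays left out. Gene symbols came from the platform's annotation, which can be old. No genome positions were used.

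Tests used limma 3.58.1 in R 4.3.3 on the 16 arrays outside AD and CT (4 group means and sex, 11 residual degrees of freedom), two-sided, adjusted by Benjamini and Hochberg over 17999 probe sets at 0.05. Differences between AD and CT came from a like fit of all 24 arrays. Limma p-values set a difference between groups against the spread between animals. Relations used 100000 permutations within groups, and with 2 animals of a sex in each group few orders exist. A level of a marker list is the mean of log2 intensity minus each gene's own mean. The method was tested on simulated data.

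Members, lists and tests were chosen with earlier results of these data known. Named genes were all probe sets of the 4 genes, close relatives, the 3 of smallest p in each list and the 3 likest; AP2M1 and AP2S1 and the marker genes were named after their values were seen. Of the relatives, RUFY2 had 0 probe sets in the annotation. Each gene of a list was represented by its brightest probe set. Alternatives were the filter, the normalization, covariates, array weights and each array left out; the split by sex and leaving out CT 4 in the relation to the ratio were added after seeing the data.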

Additional observations from a re-analysis of the deposited data

Results flagged for a closer look

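Each probe set and group of 4 animals was checked for a single animal apart from the rest, and 4 of 60 were found, where chance gives about 1 in 20. RUFY1 stood at 7.04 in AD-RES 3, with the other AD-RES animals at 6.86 to 6.88. FKBP15 (Ssc.5052.1.S1_at) stood at 8.61 in CT-GE-RES 4, with the others at 8.25 to 8.31. AP2B1 (Ssc.6040.2.S1_at) stood at 7.92 in AD-GE-RES 2, with the others at 7.19 to 7.26. OCRL (Ssc.3945.2.S1_at, under the filter on low values) stood at 3.16 in AD-GE 4, with the others at 3.4 to 3.44.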

How the results depend on the processing

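The count of probe sets called between AD-GE-RES and CT-GE-RES was 0 under every alternative run. For the supplemented atherogenic groups against CT-GE-RES, where the main count was 0, it was 2 with all 24 arrays, 16 with the 3'/5' ratio added, 684 with monocyte and T cell means added, and 0 to 54 with each array left out (54 without AD-GE-RES 2). For the sexes (47) it was 22 with the ratio, 25 with the cell means, 1785 with array weights and 25 to 716 with each array left out (716 without CT-GE-RES 3, 173 without AD-GE-RES 1 and 124 without CT-GE-RES 1). Among the supplements (0) it was 5 with the cell means and 6 with array weights. The causes were not tested.

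The directions that turned were of small differences. OCRL against CT-GE-RES went to -0.0158 (repeated quantile normalization), -0.0083 (median centring), -0.0117 (ratio added), -0.0353 (cell means added) and -0.0345 (array weights), and from -0.0413 to 0.0676 with each array left out. FKBP15 Ssc.5052.3.S1_at went to 0.0884 with the cell means and from -0.23 to 0.0101 with an array left out, and AP2B1 Ssc.6040.2.S1_at from -0.28 to 0.0018. Between the sexes AP2B1 Ssc.6040.1.S1_at was 0.0051 with all 24 arrays (from -0.0894 to 0.055 with an array left out), FKBP15 Ssc.5052.1.S1_at went from -0.0792 to 0.0079, and Ssc.5052.2.S1_at and Ssc.5052.3.S1_at were 0.0485 and 0.0518 with the cell means. Between AD-GE-RES and CT-GE-RES with an array left out, OCRL ran from -0.0747 to 0.0341, RUFY1 from -0.09 to 0.0266 and FKBP15 Ssc.5052.3.S1_at from -0.28 to 0.0308, whereas AP2B1 Ssc.6040.1.S1_at stayed between -0.62 and -0.33 and FKBP15 Ssc.5052.1.S1_at between -0.37 and -0.20. Relations that turned were AP2B1 with cytotoxic (0.0317) and monocyte genes (0.075), FKBP15 with the ratio (0.212) and RUFY1 with erythroid genes (-0.0913) in the 16 arrays, and AP2B1 with monocyte (0.115), FKBP15 with erythroid (-0.167) and OCRL with monocyte genes (0.0132) without the 2 farthest arrays.

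No paired analysis was possible because the labels give each pig a number of its own. The number of arrays sets the width of the intervals, and probe sets close to the filter are dim.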
